A study of Rattus norvegicus with 12 samples.

Results

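The 10 genes described here mark dendritic cells and were followed through whole rat lung RNA. They were taken by symbol from the deposited count table, where each of the 10 symbols matched 1 row of 32883, and all 10 passed the filter on low counts that left 15257 genes for testing. The lungs came from rats in 3 groups of 4 libraries. MCT-Fer-1 rats had monocrotaline, a plant alkaloid that injures the lung vessels and is used to model pulmonary hypertension, and then ferrostatin-1, a compound that inhibits ferroptosis, in which cells die from oxidised membrane lipids. MCT-vehicle rats had monocrotaline and the vehicle of ferrostatin-1. Control rats had neither by their labels, and no vehicle is stated for them, so that monocrotaline and vehicle dosing cannot be told apart in MCT-vehicle against Control. Ferrostatin-1 or vehicle was given for 10 days. Every sample, controls included, is labelled wild type and 25 days, with no age, sex or strain and no starting point for the days. No label ties a library to its own rat, and the p-values therefore cover only the spread among these libraries, which may be technical.

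Dendritic cells take up antigen in tissues such as the lung and carry it to lymph nodes, where they present it to T cells. Their precursors depend on the receptor FLT3. In mouse and human, conventional dendritic cells of the cDC1 kind need the transcription factors BATF3 and IRF8 and carry CLEC9A and XCR1, while cDC2 cells rely more on IRF4 and in part carry CLEC10A. Plasmacytoid dendritic cells, known for interferon secretion, carry SIGLEC-H in mouse. CD83 and the actin-bundling protein fascin (Fscn1) rise as dendritic cells mature. Several of these genes are also used outside dendritic cells: CLEC10A by macrophages, IRF4 and IRF8 by B cells, and ZBTB46 by endothelium.

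The promoters of 3 members that rose after monocrotaline and have an entry in RefSeq are shown. Clec9a and Irf8 are tied to cDC1 cells, and Cd83 to maturation. Each window runs from 250 bases before to 50 after the gene start in RefSeq build GRCr8. Capitals mark matches, on either strand, to the TATA box core (TATAAA), the CCAAT box core (letters as in its name) and the GC box core (GGGCGG).
Clec9a, chr4:164546073-164546372, plus strand: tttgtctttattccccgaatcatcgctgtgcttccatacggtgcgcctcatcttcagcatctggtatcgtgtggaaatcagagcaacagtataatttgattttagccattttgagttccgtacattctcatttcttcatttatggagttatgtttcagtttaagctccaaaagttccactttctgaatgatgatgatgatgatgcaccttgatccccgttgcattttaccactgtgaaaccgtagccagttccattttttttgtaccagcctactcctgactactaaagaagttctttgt
Irf8, chr19:65699034-65699333, plus strand: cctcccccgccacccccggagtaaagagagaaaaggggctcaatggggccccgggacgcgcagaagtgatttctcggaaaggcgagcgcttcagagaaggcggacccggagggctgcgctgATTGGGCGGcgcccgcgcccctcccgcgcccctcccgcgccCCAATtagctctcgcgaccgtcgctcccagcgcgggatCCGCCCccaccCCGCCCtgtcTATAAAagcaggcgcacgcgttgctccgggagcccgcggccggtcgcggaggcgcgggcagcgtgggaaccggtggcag
Cd83, chr17:21112628-21112927, minus strand: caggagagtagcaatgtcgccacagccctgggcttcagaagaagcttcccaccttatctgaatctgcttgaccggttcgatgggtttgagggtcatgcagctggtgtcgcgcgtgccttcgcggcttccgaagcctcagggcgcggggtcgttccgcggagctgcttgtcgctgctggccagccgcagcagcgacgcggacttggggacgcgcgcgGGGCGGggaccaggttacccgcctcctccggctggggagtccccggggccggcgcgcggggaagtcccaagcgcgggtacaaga
The Clec9a window holds none of the 3 core elements. The Irf8 window holds TATAAA at bases 222 to 227 counted from its 5′ end, CCAAT on both strands and GGGCGG on both strands, and its first CCAAT match (read as ATTGG) overlaps its first GGGCGG match. The Cd83 window holds a single GGGCGG at bases 217 to 222. Among 33469 RefSeq promoter windows of this length, TATAAA occurs in 14.2%, CCAAT in 37.5% and GGGCGG in 33.1%, on either strand. Promoter windows were found for 9 members, all but Clec10a. None of the 9 holds the ETS-IRF composite letters (GGAA and GAAA with 2 bases between them, in 2.94% of all windows), the interferon response letters (GAAA and GAAA with 2 bases between them, 3.92%), the AP-1 letters TGANTCA that BATF proteins can bind (7.33%), the NF-kB letters (GGGA and TTCC with 2 bases between them, 1.3%) or the PU.1-type letters GAGGAAGT (2.42%), searched on both strands. That says only that these letters are not in these windows.

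Library totals ran from 11601929 counts in MCT-Fer-1 1 to 70627239 counts in MCT-Fer-1 4. A floor of 3 counts equals 0.042 to 0.259 CPM (counts relative to the library size, scaled by the trimmed mean of M values, TMM), and covers counting error only. MCT-vehicle 2 stood apart by transcripts of other tissues. Its summed CPM of tested heart-muscle markers was 414, against 17.3 to 80.5 CPM in 10 other libraries and 262 CPM in Control 4. The lymph node transcripts Glycam1 (53.9 CPM), Ccl19 (39.5 CPM) and Cxcl13 (21.4 CPM) were each highest in MCT-vehicle 2, and reached at most 6.16, 5.67 and 3.05 CPM elsewhere. Ccl21 and Fabp4 of the lymph node and fat list were higher in every monocrotaline library than in any Control library. Ccl21, a chemokine of lymphatic endothelium and lymph nodes, was at 171 to 380 CPM in MCT-Fer-1, 221 to 366 CPM in MCT-vehicle and 70.7 to 119 CPM in Control (MCT-vehicle over Control 1.82 ± 0.27 on the log2 scale, edgeR adjusted p = 0.00109). The 6 tested genes of that list summed to 230 to 453 CPM in MCT-Fer-1, 351 to 515 CPM in MCT-vehicle and 85.8 to 146 CPM in Control. Most of each sum was Ccl21 and Fabp4. By edgeR 2 of the 6 genes rose in MCT-vehicle against Control, where 5 lay above 0 and 1 below (median log2 fold change 2.05). In MCT-Fer-1 against MCT-vehicle none passed, and all 6 lay below 0 (median -1.4). In MCT-Fer-1 against Control 2 of the 6 rose, while 3 lay above 0 and 3 below. The part of these genes in the members' values was not tested. Lymph nodes hold dendritic cells, so the members called in MCT-vehicle are also given without MCT-vehicle 2. Control 4 is left out with it for its heart-muscle sum, since its Ccl19 (0.888 CPM) and Cxcl13 (0.651 CPM) were low. In Control 4 only 1 of 10 members lay above the group mean, so leaving it out raises the Control mean of most members. Lung markers were 9 tested epithelial genes, such as the surfactant gene Sftpc. They summed to 30700 to 45500 CPM in MCT-Fer-1, 30900 to 40700 CPM in MCT-vehicle and 42000 to 44500 CPM in Control. In this sum MCT-vehicle lay wholly below Control, though none of the 9 genes passed by edgeR. In whole lung, more dendritic cells and more RNA per cell cannot be told apart.

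In monocrotaline lungs given vehicle, the cDC1 receptor gene Clec9a, the lectin gene Clec10a, the transcription factor gene Irf8 and the maturation gene Cd83 rose against Control. Clec9a rose 3.66-fold, Clec10a 2.76-fold, Irf8 1.8-fold and Cd83 1.66-fold. No member fell past the threshold. In all, 4 of 10 members rose by edgeR at an adjusted p below 0.05, beside 10.3% of all genes that rose and 8.28% that fell (18.6% in either direction). At an unadjusted p below 0.05 there were 7 of 10 members, beside 32.1% of all genes. The members' median log2 fold change was 0.65, against 0.02 over all genes tested, and 8 of 10 lay above 0. The 4 values of each group did not overlap in 6 of 10 members, beside 21.5% of all genes. The members and lists were chosen with earlier results of these data known. Their counts beside those of all genes, here and in the later comparisons, are therefore only a description.

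**Figure D1:**
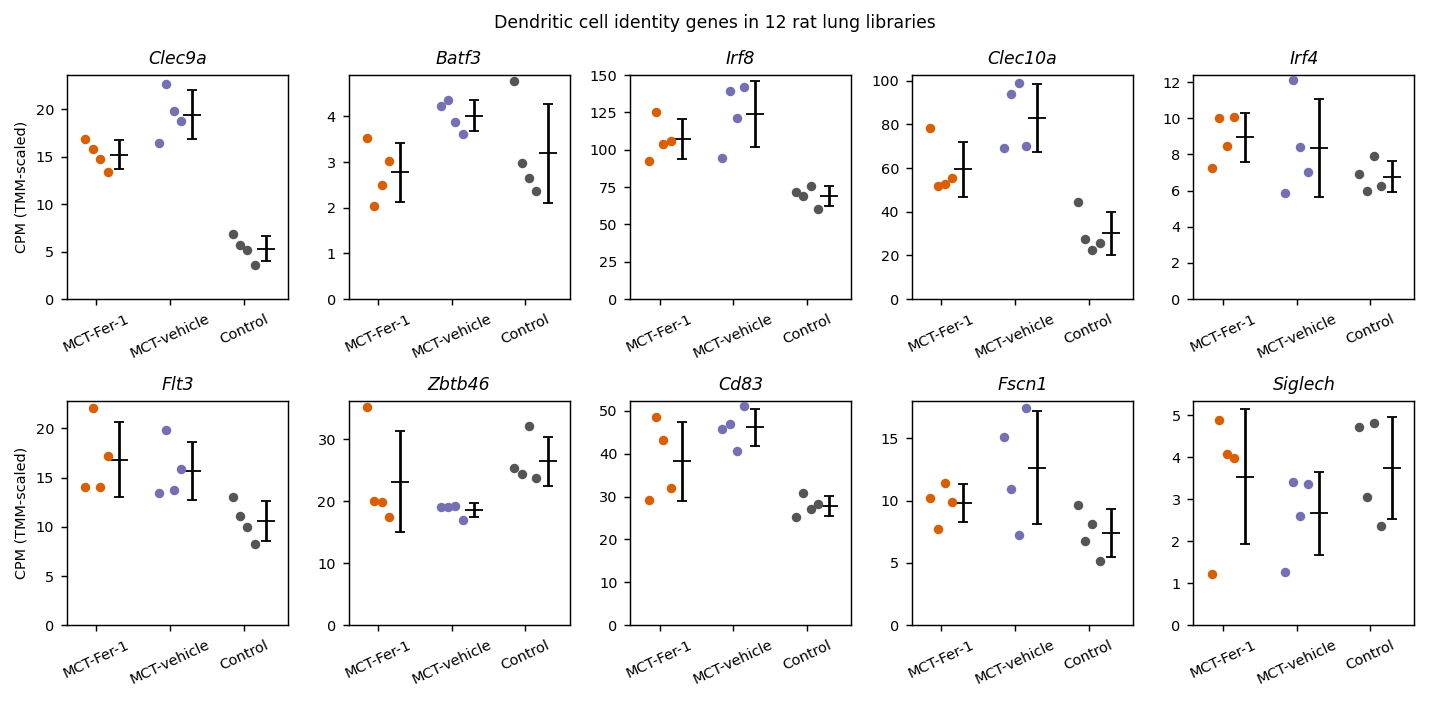
Level of each member in CPM (TMM-scaled, linear axis from 0) in the 4 libraries of MCT-Fer-1, MCT-vehicle and Control; points are libraries, and the bar and whiskers beside them are the mean and SD (n = 4). Clec9a, Clec10a and Irf8 lie higher in every MCT-Fer-1 and MCT-vehicle library than in any Control library, while Siglech and Irf4 overlap in all groups.

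Clec9a encodes a receptor of cDC1 cells for actin exposed on dead cells. It stood at 16.9, 15.8, 14.8 and 13.4 CPM in MCT-Fer-1, at 16.4, 22.7, 19.8 and 18.8 CPM in MCT-vehicle, and at 6.82, 5.65, 5.12 and 3.61 CPM in Control. All 8 monocrotaline libraries were above all 4 Control libraries, and the 2 monocrotaline groups overlapped at their edge. The log2 fold change of MCT-vehicle over Control was 1.87 ± 0.17 (SE, n = 4 per group; edgeR adjusted p = 4.6e-05), and 1.64 ± 0.15 without MCT-vehicle 2 and Control 4 (edgeR adjusted p = 0.00056).

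Batf3, the AP-1 type factor required for cDC1 development in mouse, gave no call. Its levels were 3.53, 2.03, 2.5 and 3.03 CPM in MCT-Fer-1, 4.23, 4.35, 3.88 and 3.62 CPM in MCT-vehicle, and 4.78, 2.99, 2.65 and 2.37 CPM in Control. Every MCT-vehicle library was above every MCT-Fer-1 library, whereas Control 1 was the highest of all 12 and the other Control libraries lay among the MCT-Fer-1 values. MCT-vehicle over Control gave 0.33 ± 0.24 on the log2 scale (edgeR adjusted p = 0.383), with a 95% interval from -0.2 to 0.86.

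Irf8, which directs precursors to the cDC1 fate and also acts in monocytes and B cells, had 92.6, 125, 104 and 106 CPM in MCT-Fer-1, 94.1, 139, 121 and 142 CPM in MCT-vehicle, and 71.7, 68.7, 75.4 and 60.1 CPM in Control. The lowest monocrotaline library lay above the highest Control library. MCT-vehicle exceeded Control by 0.85 ± 0.13 on the log2 scale (edgeR adjusted p = 0.000933), and by 0.72 ± 0.15 without MCT-vehicle 2 and Control 4 (edgeR adjusted p = 0.0116). The tested B cell markers gave no call (0 of 9), and their summed CPM was 60.1 to 159 in MCT-Fer-1, 85.5 to 151 in MCT-vehicle and 105 to 112 in Control. In the same comparison 12 of 15 macrophage markers rose and 1 fell, and of 7 monocyte markers 1 rose and 1 fell. The part of these cells in the Irf8 values was not tested.

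Clec10a, a galactose-binding lectin of cDC2 cells and of macrophages, had 78.3, 51.6, 52.5 and 55.3 CPM in MCT-Fer-1, 69.3, 94.1, 98.9 and 70 CPM in MCT-vehicle, and 44.3, 27.7, 22.5 and 25.7 CPM in Control. Control 1 stood above the other Control libraries, yet below all 8 monocrotaline libraries. The log2 fold change of MCT-vehicle over Control was 1.46 ± 0.22 (edgeR adjusted p = 0.000882), and 1.33 ± 0.26 without MCT-vehicle 2 and Control 4 (edgeR adjusted p = 0.0119). Among 15 macrophage markers tested, 12 rose and 1 fell in the same comparison (10 and 1 without MCT-vehicle 2 and Control 4), with the complement gene C1qa up by 2.04 ± 0.14 and the folate receptor gene Folr2 up by 2.62 ± 0.25 (edgeR adjusted p = 8.6e-06 and 5.04e-05), and their summed CPM was 2190 to 3050 in MCT-Fer-1, 2060 to 3900 in MCT-vehicle and 1360 to 1600 in Control. The part of macrophages in the Clec10a values was not tested.

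Irf4, the factor of cDC2 cells that also acts in B and plasma cells, had 7.24, 10, 8.47 and 10.1 CPM in MCT-Fer-1, 5.85, 12.1, 8.43 and 7.04 CPM in MCT-vehicle, and 6.93, 5.98, 7.89 and 6.27 CPM in Control. The groups overlapped, and the highest value was that of MCT-vehicle 2. For MCT-vehicle over Control it gave 0.3 ± 0.21 on the log2 scale (edgeR adjusted p = 0.348), with an interval from -0.15 to 0.76, and 0.06 ± 0.18 without MCT-vehicle 2 (edgeR adjusted p = 0.845).

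Flt3 encodes the receptor by which FLT3 ligand expands dendritic cells and their precursors. It had 14, 22.1, 14 and 17.2 CPM in MCT-Fer-1, 13.4, 19.8, 13.7 and 15.9 CPM in MCT-vehicle, and 13, 11.1, 9.94 and 8.23 CPM in Control. The monocrotaline libraries lay above the Control libraries, though the lowest of them exceeded Control 1 by little. MCT-vehicle over Control gave 0.57 ± 0.19 on the log2 scale, just outside the threshold (edgeR adjusted p = 0.0505). Over 21 other settings its adjusted p ran from 0.025 with DESeq2 to 0.281 without MCT-vehicle 2 and Control 4, where the log2 fold change was 0.33 ± 0.19. Its ligand gene Flt3lg averaged 3.41 CPM in MCT-Fer-1, 3.65 CPM in MCT-vehicle and 4.21 CPM in Control, with no call.

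Zbtb46 encodes a transcriptional repressor that is made in conventional dendritic cells and is also found in mouse endothelium. Its log2 fold changes against Control were below 0. It had 35.2, 20, 19.9 and 17.5 CPM in MCT-Fer-1, 19.1, 19.1, 19.3 and 17 CPM in MCT-vehicle, and 25.4, 24.4, 32.2 and 23.7 CPM in Control. All MCT-vehicle values were below all Control values, and MCT-Fer-1 1 was the highest library of all. MCT-vehicle over Control gave -0.5 ± 0.19 on the log2 scale (edgeR adjusted p = 0.085). Without MCT-Fer-1 1, the highest library, it was -0.5 ± 0.11 (edgeR adjusted p = 0.00734), and in the fit of only these groups it was -0.51 ± 0.11 (edgeR adjusted p = 0.0134). Tested endothelial markers summed to 4610 CPM in MCT-Fer-1 1 and to 3210 to 3790 CPM in the other MCT-Fer-1 libraries, to 2810 to 3440 CPM in MCT-vehicle and to 4500 to 4920 CPM in Control. Of these markers 5 of 10 fell and 1 rose in MCT-vehicle against Control, with the angiopoietin receptor gene Tek at -1.95 ± 0.12 (edgeR adjusted p = 7.88e-06). The part of endothelium in the Zbtb46 values was not tested.

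**Figure D2:**
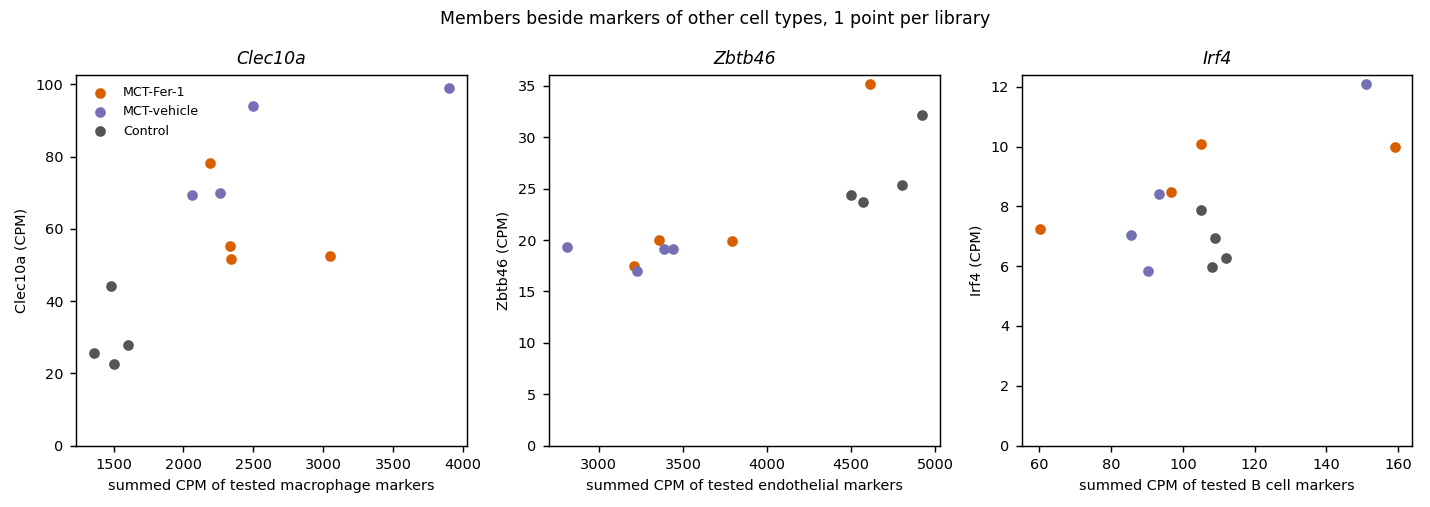
Level of Clec10a, Zbtb46 and Irf4 (CPM, vertical axis from 0) against the summed CPM of tested macrophage, endothelial and B cell markers (horizontal axis, not from 0), 1 point per library. The 4 Control libraries and MCT-Fer-1 1 have both the highest endothelial sums (4500 CPM or more) and the highest Zbtb46 values, and Control has the lowest macrophage sums and the lowest Clec10a.

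Of the maturation genes, Cd83, a surface protein of activated dendritic cells and B cells, had 29.2, 48.6, 43.2 and 31.9 CPM in MCT-Fer-1, 45.8, 47, 40.6 and 51 CPM in MCT-vehicle, and 25.2, 30.9, 27 and 28.2 CPM in Control. MCT-vehicle lay wholly above Control, and MCT-Fer-1 split into a high and a low pair, with MCT-Fer-1 1 inside the Control range. MCT-vehicle exceeded Control by 0.73 ± 0.15 on the log2 scale (edgeR adjusted p = 0.00453), and by 0.72 ± 0.18 without MCT-vehicle 2 and Control 4 (edgeR adjusted p = 0.0316). The part of other cell types in the Cd83 values was not tested.

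Fscn1, which bundles actin in the processes of mature dendritic cells and is also made by other cells, had 10.2, 7.7, 11.4 and 9.9 CPM in MCT-Fer-1, 15.1, 10.9, 7.23 and 17.4 CPM in MCT-vehicle, and 9.67, 6.76, 8.13 and 5.15 CPM in Control. The groups overlapped through MCT-vehicle 3. The log2 fold change of MCT-vehicle over Control was 0.77 ± 0.26 (edgeR adjusted p = 0.0545), and 0.96 ± 0.22 without MCT-vehicle 3 (edgeR adjusted p = 0.0125).

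Siglech, the receptor gene that marks plasmacytoid dendritic cells in mouse, had few reads, with 14, 106, 108 and 285 counts in MCT-Fer-1, 30, 75, 35 and 64 counts in MCT-vehicle, and 86, 55, 80 and 40 counts in Control. In CPM these were 1.21, 4.88, 4.08 and 3.99 in MCT-Fer-1, 1.28, 3.4, 2.61 and 3.36 in MCT-vehicle, and 4.73, 3.05, 4.82 and 2.37 in Control. MCT-Fer-1 1 and MCT-vehicle 1 were low, and the groups overlapped. The log2 fold change of MCT-vehicle over Control was -0.49 ± 0.41 (edgeR adjusted p = 0.439), with an interval from -1.37 to 0.39.

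**Figure D3:**
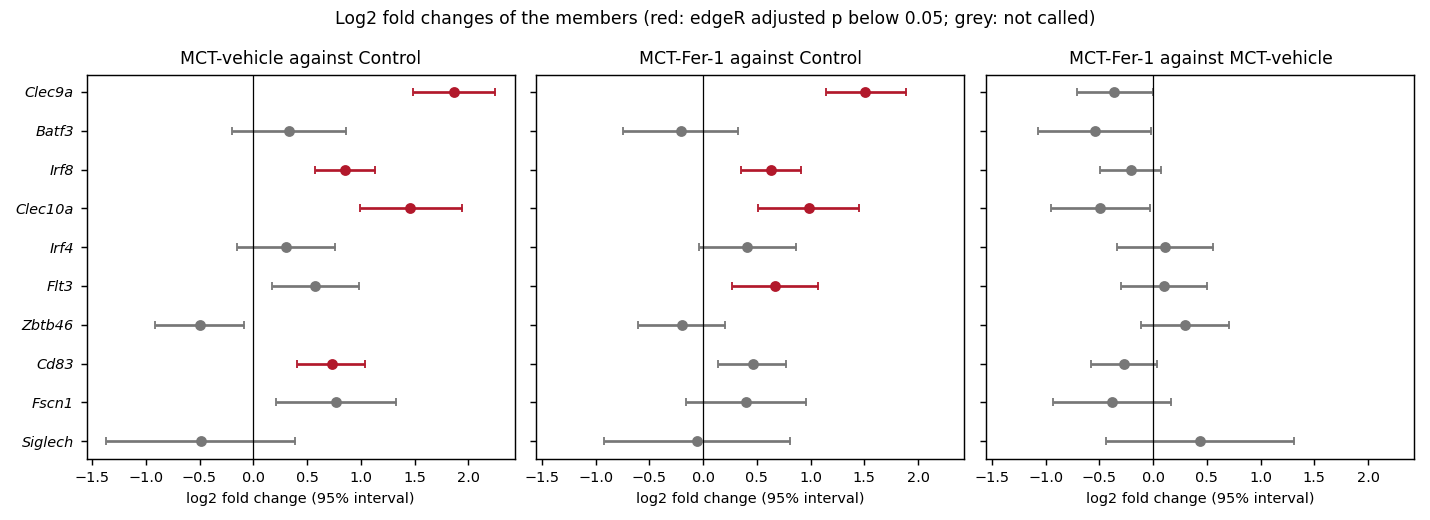
Log2 fold change of each member (points) with its 95% interval (whiskers) in the 3 comparisons, from the edgeR fit of all 12 libraries; red points passed an adjusted p of 0.05. Clec9a, Clec10a and Irf8 are red in both comparisons with Control, and no member is red in MCT-Fer-1 against MCT-vehicle.

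Set against Flt3 within each library, which needs no scaling between libraries, some members kept apart between the groups and some did not. No test was made of these ratios, and the share of all genes that keep apart in such ratios was not computed. Flt3 itself lay higher in every monocrotaline library than in any Control library. A gene that does not change therefore has a lower ratio in the monocrotaline groups. Clec9a counts were 1.15 to 1.44 times those of Flt3 in MCT-vehicle and 0.439 to 0.523 times in Control. Zbtb46 counts were 0.968 to 1.43 times those of Flt3 in MCT-vehicle and 1.95 to 3.24 times in Control. Siglech counts were 0.0955 to 0.212 times those of Flt3 in MCT-vehicle and 0.275 to 0.485 times in Control. MCT-vehicle and Control did not overlap in these ratios, nor in that of Clec10a to Flt3 (4.41 to 7.21 in MCT-vehicle and 2.27 to 3.4 in Control), while the ratios of Irf8, Irf4, Cd83, Fscn1 and Batf3 to Flt3 did overlap. Between MCT-Fer-1 and Control, the ratios to Flt3 of Clec10a (2.34 to 5.61 in MCT-Fer-1), Zbtb46 (0.908 to 2.52) and Siglech (0.0864 to 0.293) overlapped those of Control, that of Clec9a did not (0.714 to 1.21), and that of Batf3 did not (0.0919 to 0.253 in MCT-Fer-1 and 0.267 to 0.367 in Control). These ratios describe change between groups, since without gene lengths they do not rank the genes by level.

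Of the other cDC1 genes, 7 of 10 rose and 1 fell in MCT-vehicle against Control, with a median log2 fold change of 0.61. Over all genes 10.3% rose and 8.28% fell, here and for the lists that follow. Xcr1, the chemokine receptor by which cDC1 cells find T cells, had 9.22, 10.7, 10.5 and 7.34 CPM in MCT-Fer-1, 9.74, 11.5, 8.13 and 13.1 CPM in MCT-vehicle, and 2.69, 3.16, 2.59 and 1.95 CPM in Control. The monocrotaline groups overlapped each other and both lay above Control (log2 fold change of MCT-vehicle over Control 2.03 ± 0.2, edgeR adjusted p = 5.54e-05). Rab7b, a small GTPase of endosomes, rose by 1.47 ± 0.15, Tlr3, the receptor for double-stranded RNA, by 0.55 ± 0.07 and Gcsam by 1.87 ± 0.26 (edgeR adjusted p from 8.29e-05 to 0.000484). The 1 gene that fell, named here after its value was seen, was Cadm1, an adhesion molecule of cDC1 cells that epithelium also makes (-0.47 ± 0.11, edgeR adjusted p = 0.0102). Without MCT-vehicle 2 and Control 4, 4 of these 10 genes rose and 1 fell.

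Of the cDC2 genes, 4 of 11 tested rose and none fell, with a median log2 fold change of 0.61. They were the lectin gene Clec4a3 (0.89 ± 0.13), Tnfsf9, the ligand of the costimulator 4-1BB (1.61 ± 0.34), the sialic acid receptor gene Cd33 (1.06 ± 0.23) and Clec4a1 (0.91 ± 0.22), with edgeR adjusted p from 0.000652 to 0.0136. Monocytes and macrophages also carry some of these receptors. Of the plasmacytoid genes, 1 of 12 tested rose and 1 fell, beside 10.3% and 8.28% of all genes, with a median of -0.15. Spib, an ETS factor of plasmacytoid and B cells, had 16.6, 24.8, 17.8 and 22 CPM in MCT-Fer-1, 12.2, 18.5, 15.4 and 20 CPM in MCT-vehicle, and 34.9, 51.7, 42.5 and 42.7 CPM in Control, and so lay lower in all 8 monocrotaline libraries than in Control (MCT-vehicle over Control -1.38 ± 0.17, edgeR adjusted p = 0.000284). Tlr7, the receptor for single-stranded RNA, rose by 0.53 ± 0.14 (edgeR adjusted p = 0.0184).

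Of the other maturation genes, 2 of 14 tested rose, beside 10.3% of all genes, and none fell, with a median of 0.45. They were the costimulatory ligand genes Cd80 (2.69 ± 0.2, edgeR adjusted p = 2.08e-05) and Cd86. Cd86 averaged 11.2 CPM in MCT-Fer-1, 13.4 CPM in MCT-vehicle and 6.95 CPM in Control (MCT-vehicle over Control 0.95 ± 0.14, edgeR adjusted p = 0.000796). The lymph node homing receptor gene Ccr7 averaged 14.4 CPM in MCT-Fer-1, 12.9 CPM in MCT-vehicle and 14.4 CPM in Control, a log2 fold change of -0.16 ± 0.26 for MCT-vehicle over Control (edgeR adjusted p = 0.721). For Cd40, the receptor for T cell help, it was 0.43 ± 0.17 (edgeR adjusted p = 0.0998).

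Of the MHC class II genes, which antigen-presenting cells of several kinds carry, 6 of 9 rose and none fell, with a median of 0.56. RT1-Db1 rose by 0.68 ± 0.1, the processing protease gene Ctss by 1.15 ± 0.17, RT1-Da by 0.56 ± 0.09 and the invariant chain gene Cd74 by 0.39 ± 0.08 (edgeR adjusted p from 0.000678 to 0.00486). The RT1 genes are close copies of one another, and since counting may divide reads among them, values of single RT1 genes are uncertain. A further list of 12 genes joins general dendritic cell genes with genes of the FLT3 and CSF2 axis. Of these, 3 rose and 1 fell, while 6 lay above 0 and 6 below, with a median of 0.02. The CSF2 receptor genes Csf2rb (1.46 ± 0.24) and Csf2ra (0.82 ± 0.16) and the integrin gene Itgax (0.93 ± 0.26) rose, and the peptidase gene Dpp4, which many lung cells make, fell (-0.98 ± 0.09), with edgeR adjusted p from 4.6e-05 to 0.0303. Itgax, which encodes CD11c, is also high in alveolar macrophages. Without MCT-vehicle 2 and Control 4, 3 of 11 cDC2 genes, 1 of 12 plasmacytoid genes and 2 of 14 maturation genes rose. So did 5 of 9 MHC class II genes and 2 of the 12 general and axis genes. Of the plasmacytoid genes 1 fell, and of the general and axis genes 2 fell.

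**Figure D4:**
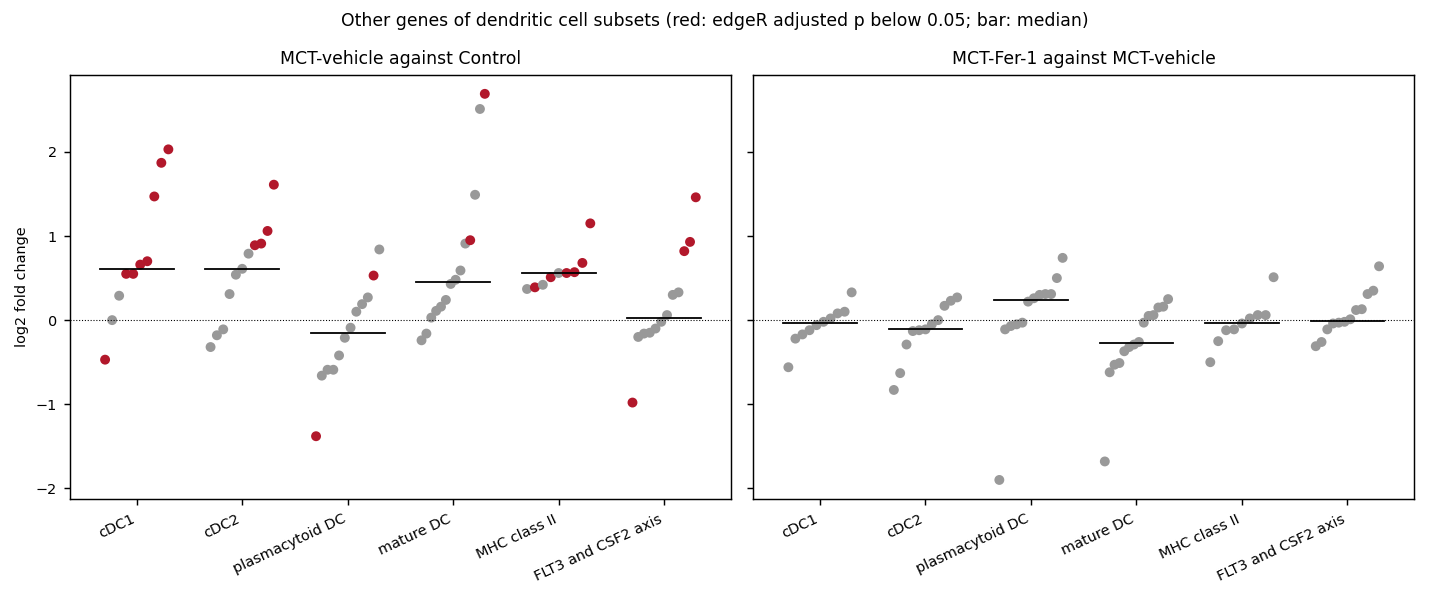
Log2 fold changes of tested genes in 6 lists of dendritic cell genes other than the members (points; bar, median of the list) for MCT-vehicle against Control and MCT-Fer-1 against MCT-vehicle; red points passed an edgeR adjusted p of 0.05. In the first comparison 7 of 10 cDC1 genes and 6 of 9 MHC class II genes are red above 0, and in the second no gene is red. The list labelled FLT3 and CSF2 axis also holds general dendritic cell genes.

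Of the lymphocyte markers, 0 of 9 B cell genes and 0 of 14 T and NK cell genes passed the test in either direction in MCT-vehicle against Control (edgeR). At an unadjusted p below 0.05 there were 0 of 9 B cell genes and 3 of 14 T and NK cell genes, beside 32.1% of all genes. Of those 3 genes, 2 lay lower in MCT-vehicle. Monocyte markers had 1 up and 1 down of 7 tested, and plasma cell markers 1 up of 5, and none of either passed without MCT-vehicle 2 and Control 4.

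Ferrostatin-1 gave no call for any member against vehicle (0 of 10 by edgeR, DESeq2 and limma voom). Over all genes edgeR called 0% in this comparison, and DESeq2 called 225 genes. At an unadjusted p below 0.05 there were 3 of 10 members, Batf3, Clec9a and Clec10a, beside 12% of all genes, and all 3 were lower in MCT-Fer-1. Clec9a had a log2 fold change of MCT-Fer-1 over MCT-vehicle of -0.36 ± 0.16 (edgeR adjusted p = 0.412), Clec10a of -0.49 ± 0.21 (edgeR adjusted p = 0.385) and Batf3 of -0.54 ± 0.24 (edgeR adjusted p = 0.403). Their 95% intervals reached from -0.71, -0.95 and -1.07 up to 0, -0.03 and -0.02. With 1 library left out, Clec9a ran from -0.43 to -0.27, Clec10a from -0.64 to -0.39 and Batf3 from -0.67 to -0.42. None of these fits called them. Of 15 macrophage markers none passed in this comparison, 12 lay below 0 and 6 had an unadjusted p below 0.05, of which 5 were lower in MCT-Fer-1 (C1qa -0.54 ± 0.13, C1qc -0.59 ± 0.16) and Lyve1 was higher (0.36 ± 0.11). Of 10 endothelial markers none passed, 9 lay above 0 and 4 had an unadjusted p below 0.05, among them Tek (0.38 ± 0.12). All 7 tested heart-muscle genes (median -3.43) and all 6 tested lymph node and fat genes (median -1.4) lay below 0, and none passed. MCT-vehicle 2 had the highest sum of both lists (414 and 515 CPM). The part of these cell types and tissues in the members' differences was not tested. Batf3 was the only member whose MCT-Fer-1 and MCT-vehicle values did not overlap, beside 6.1% of all genes. For the others the log2 fold changes were -0.21 ± 0.13 for Irf8, -0.27 ± 0.14 for Cd83, -0.38 ± 0.25 for Fscn1, 0.1 ± 0.18 for Flt3, 0.11 ± 0.21 for Irf4, 0.3 ± 0.19 for Zbtb46 and 0.44 ± 0.4 for Siglech. With 1 library left out, Zbtb46 ran from 0.04 (without MCT-Fer-1 1) to 0.42, Siglech from 0.2 (without MCT-vehicle 1) to 0.7 (without MCT-Fer-1 1) and Fscn1 from -0.56 (without MCT-vehicle 3) to -0.18 (without MCT-vehicle 4), none of them called. The members' median was -0.24, against -0.01 over all genes. A missing call does not show that the groups are alike: the interval of Irf8 ran from -0.49 to 0.07 and that of Siglech from -0.44 to 1.31.

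Among the other cDC1 genes, Xcr1 differed by -0.17 ± 0.19 between MCT-Fer-1 and MCT-vehicle (edgeR adjusted p = 0.741). Rab7b had 15.3, 24.9, 23.3 and 20 CPM in MCT-Fer-1, 31.5, 29, 29.2 and 33.6 CPM in MCT-vehicle, and 10.3, 12.4, 13.1 and 8.88 CPM in Control. Its 3 groups did not overlap, with MCT-Fer-1 between the others, but the difference of MCT-Fer-1 from MCT-vehicle did not pass (-0.56 ± 0.15, edgeR adjusted p = 0.206). Rab7b was the only 1 of the 10 genes whose MCT-Fer-1 and MCT-vehicle values did not overlap, beside 6.1% of all genes. No gene of any dendritic cell list passed in this comparison.

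Against Control, which these comparisons share, the MCT-Fer-1 lungs had Clec9a, Clec10a, Irf8 and Flt3 higher, 4 of 10 members, beside 6.67% of all genes that rose and 4.12% that fell (10.8% in either direction). At an unadjusted p below 0.05 there were 5 of 10 members, beside 25.2% of all genes. The log2 fold changes were 1.51 ± 0.17 for Clec9a (edgeR adjusted p = 0.000176), 0.98 ± 0.22 for Clec10a (edgeR adjusted p = 0.0135), 0.63 ± 0.13 for Irf8 (edgeR adjusted p = 0.00824) and 0.67 ± 0.19 for Flt3 (edgeR adjusted p = 0.037). The members' median was 0.44, against 0 over all genes, and 4 of 10 members did not overlap between the groups, beside 19.1% of all genes. Without MCT-vehicle 2 and Control 4 the calls of Clec10a (0.91 ± 0.24, edgeR adjusted p = 0.0563) and Flt3 (0.57 ± 0.17, edgeR adjusted p = 0.081) were lost. The Flt3 call was also lost without MCT-Fer-1 2 (0.51 ± 0.18, edgeR adjusted p = 0.113), without MCT-Fer-1 4 (edgeR adjusted p = 0.0721), without Control 2 (edgeR adjusted p = 0.0731), without Control 3 (edgeR adjusted p = 0.0926), without Control 4 (edgeR adjusted p = 0.108) and with all libraries thinned to the smallest (0.53 ± 0.19, edgeR adjusted p = 0.0931). Of the other cDC1 genes, 6 of 10 rose in MCT-Fer-1 and none fell, and of the MHC class II genes 6 of 9 rose, while 11 of 15 macrophage markers rose and 1 fell. Without MCT-vehicle 2 and Control 4, 7 of 15 macrophage markers and 4 of 10 cDC1 genes rose, and 2 of 11 cDC2 genes rose, against 4 of 11 with these libraries. Cd83 did not pass (0.46 ± 0.15, edgeR adjusted p = 0.0632), and passed without MCT-Fer-1 1 (0.56 ± 0.13, edgeR adjusted p = 0.02). Zbtb46 was at -0.2 ± 0.19 (edgeR adjusted p = 0.556), and without MCT-Fer-1 1 it passed as lower in MCT-Fer-1 (-0.46 ± 0.12, edgeR adjusted p = 0.025).

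Within groups the members did not vary as a block. Over 45 pairs, Pearson's r of their deviations from the group means across the 12 libraries had a median of 0.17 and ran from -0.67 to 0.87, as a description of libraries that share depth and tissue sampling. Irf8 varied most closely with Siglech (r = 0.87, n = 12) and with Flt3 (r = 0.73, n = 12). Clec10a varied most closely with Batf3 (r = 0.8, n = 12) and with Clec9a (r = 0.67, n = 12). Cd83 ran against Batf3 (r = -0.67, n = 12) and Clec10a (r = -0.57, n = 12), and Zbtb46 against Siglech (r = -0.56, n = 12). Single libraries lay far from their groups in some members, and these pairs were not recomputed without them. MCT-vehicle 1 deviated by -0.92 in Siglech and -0.38 in Irf8, and MCT-vehicle 3 by -0.72 in Fscn1. MCT-Fer-1 1 was 0.66 above its group mean on the log2 scale in Zbtb46 and 1.32 below it in Siglech (deviation -1.32), and Control 1 was 0.61 above in Clec10a and 0.62 above in Batf3.

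**Figure D5:**
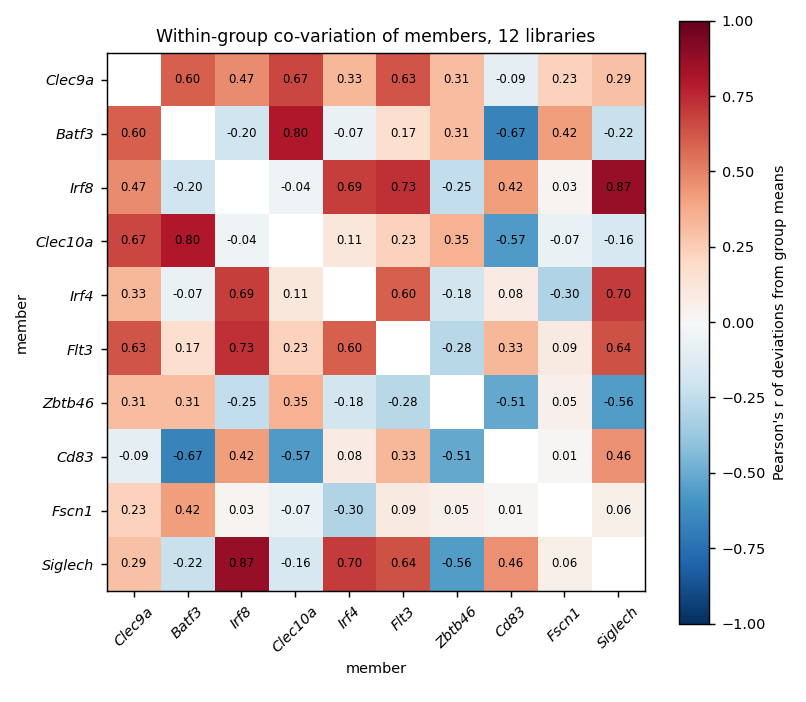
Pearson's r between members, computed from deviations of log2 CPM from the group means over 12 libraries (colour and number in each cell; both axes list the members). Irf8, Irf4, Flt3 and Siglech form positive cells (0.6 to 0.87), and Clec9a, Batf3 and Clec10a another set (0.6 to 0.8). The sets are not separate, since Clec9a also ran with Flt3 (0.63) and with Irf8 (0.47).

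The genes whose centred log2 CPM over the 12 libraries differed least from a member were, for Clec9a, Il1rl1 (root-mean-square difference 0.212), C1qa (0.225) and Gcsam (0.234). For Clec10a they were Stab1 (0.254), Igsf10 (0.257) and Cpt1c (0.258), and for Flt3 they were Nlrp3 (0.163), RT1-DOb (0.179) and Jaml (0.189). For Irf8 they were Gpm6b (0.106), Fgd2 (0.12) and Bri3bp (0.129), and for Cd83 they were Litaf (0.123), Nek6 (0.128) and Sod2 (0.142). These are differences on the log2 scale, with each gene centred on its own mean.

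The Ensembl identifiers are ENSRNOG00000051690 (Clec9a), ENSRNOG00000018715 (Clec10a), ENSRNOG00000054764 (Flt3), ENSRNOG00000003716 (Batf3), ENSRNOG00000061070 (Irf4), ENSRNOG00000017869 (Irf8), ENSRNOG00000014592 (Zbtb46), ENSRNOG00000018092 (Cd83), ENSRNOG00000056585 (Fscn1) and ENSRNOG00000021499 (Siglech).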

How the data were processed

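Whole rat lung RNA was sequenced in 12 libraries, 4 per group. The authors deposited whole-number counts of reads for each gene. Not given in the sources used here are the aligner, counter, genome build, strand setting and trimming, so that reads of overlapping or antisense genes and of near-identical copies cannot be separated. The deposited group means were not used.

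Genes were kept with filterByExpr (15257 of 32883), scaled by TMM and fitted over all 12 libraries, 1 coefficient per group and 9 residual degrees of freedom, with edgeR 4.0.16 in R 4.3.3 (robust quasi-likelihood test). P-values were adjusted by Benjamini-Hochberg over all genes tested, and a call is an adjusted p below 0.05. Errors of log2 fold changes are SE, and errors of levels are SD. The procedure was tested on simulated data. Alternatives were other scalings, no filter, DESeq2 1.42.0, limma 3.58.1 voom, the compared groups alone, thinning, a replicate block and left-out libraries. Leaving out MCT-vehicle 2 and Control 4 in the list counts was chosen after seeing the data.

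The members and lists were chosen with earlier results of these data known. Each member is given; from the other dendritic cell lists, up to 4 called genes with the smallest p in MCT-vehicle against Control are named, besides Flt3lg, Xcr1, Itgax, Ccr7, Cd86 and Cd40. Lamp3 is in both the maturation and the epithelial list. Of 182 list symbols, 173 matched a row and 159 were tested. Replicate numbers do not pair the libraries: same-numbered libraries correlated at -0.063 to 0.102 in their deviations from the group means. Promoters came from RefSeq (GRCr8) and were matched by symbol.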

Additional observations from a re-analysis of the deposited data

Results flagged for a closer look

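In 3 of 30 member and group combinations, 1 library stood further from the other 3 than Dixon's 95% limit allows, where chance flags about 1 in 20. Clec10a in MCT-Fer-1 1 was at 78.3 CPM, against 51.6 to 55.3 CPM in the other MCT-Fer-1 libraries (gap 0.86 of the range). Zbtb46 in MCT-Fer-1 1 was at 35.2 CPM, against 17.5 to 20 CPM in the other MCT-Fer-1 libraries (0.858 of the range). Zbtb46 in MCT-vehicle 4 was at 17 CPM, against 19.1 to 19.3 CPM in the other MCT-vehicle libraries (0.926 of a narrow range). MCT-Fer-1 1 had the lowest library total and, of the MCT-Fer-1 libraries, the highest endothelial sum (4610 CPM) and the lowest B cell sum (60.1 CPM). The part of these in its values was not tested.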

How the results depend on the processing

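Over 21 alternatives for each of 10 members in 3 comparisons (630 values), 597 kept their direction and their side of the threshold, 18 gained a call, 8 lost one and 7 changed sign. In MCT-vehicle against Control, the calls of Clec9a, Clec10a, Irf8 and Cd83 held in all 21, and 4 to 6 members were called with 1 library left out. In MCT-Fer-1 against MCT-vehicle no member was called in any of the 21. Over all genes that comparison gave 225 calls with DESeq2, 1 with only the compared groups, and 0 to 41 with 1 library left out (41 without MCT-vehicle 3). In MCT-Fer-1 against Control, calls over all genes ran from 977 to 1714 with 1 library left out. Without MCT-vehicle 2 and Control 4 there were 978 such calls and 2 members, and 1675 calls in MCT-vehicle against Control. With 1 library left out, the log2 fold change of Siglech in MCT-Fer-1 over Control ran from -0.23 to 0.2 (0.2 without MCT-Fer-1 1, 0.08 without Control 1 and 0.09 without Control 3), and was 0.05 with limma voom. That of Batf3 in the same comparison ran from -0.34 to 0.05. For MCT-Fer-1 over MCT-vehicle, Flt3 ran from -0.06 to 0.23 and Irf4 from -0.03 to 0.35. The cause of these changes was not tested. With the replicate number as a block, Flt3 in MCT-vehicle over Control was called (0.56 ± 0.16, edgeR adjusted p = 0.0406) and 5 members in all, and no other member's call changed. The lowest counts (Siglech, 14 in MCT-Fer-1 1) limit what can be read from that gene.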
